A study of Mus musculus with 16 samples.

Results

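Matrix metalloproteinases (MMPs) are zinc-dependent proteases that cut collagens and other extracellular matrix and surface proteins, and tissue inhibitors of metalloproteinases (TIMPs) bind and block them. In the colon, several MMPs are made by fibroblasts, by infiltrating leukocytes and by epithelium at the edge of ulcers, and their balance with TIMPs bears on matrix turnover during repair. The genes described here are 7 MMPs (Mmp2, Mmp3, Mmp7, Mmp9, Mmp10, Mmp13 and Mmp14) and 3 inhibitors (Timp1, Timp2 and Timp3). They were picked by gene symbol, and all 10 were found among the 22396 symbols listed in both deposited tables.

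RNA was sequenced from EpCAM+ cells sorted from the distal colon of 16 mice, 1 library per mouse. All mice carried loxP-flanked Tnfr2 (the gene Tnfrsf1b) on both alleles, Tnfr2-f/f. Control mice had no Cre, and mice labelled knockout also carried Vil1::Cre, a Cre recombinase driven by the villin promoter of intestinal epithelium. Dextran sulfate sodium (DSS), which injures the colonic epithelium, was given at 3% for 6 days to 3 control and 4 labelled knockout mice, and water was given to 4 control and 5 labelled knockout mice. The labels place every dissection at day 12. The study's methods differ on both counts, with a higher percentage of DSS and with uninjured mice taken at the start. They describe the mice as young adults and the injured regions as separated under a stereomicroscope before digestion. All 7 mice given DSS were females, housed in 2 cages (c and d). On water, cage a held the 4 males and cage b the 5 females. No cage held both treatments, so cage and treatment cannot be told apart.

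Abundances are in TPM, the share of a library's transcripts after division by transcript length, from which library depth cannot be read, so the precision due to depth is unknown. The 2 treatments were scaled in separate tables, so genotypes were tested within a treatment, and levels across treatments are given as rescaled TPM (one median-of-ratios factor per mouse over all 16 mice) with no test. The factors lay between 0.905 and 0.940 on water and between 1.13 and 1.24 after DSS. The targeted gene did not separate the genotypes: Tnfrsf1b averaged 18.4 TPM ± 6.02 (SD, n = 4) against 16.5 ± 4.95 (n = 3) in controls after DSS, and 11.8 ± 2.30 (n = 5) against 13.9 ± 2.06 (n = 4) on water. The exact permutation p of these differences were 0.686 and 0.175. A TPM over the whole transcript does not resolve the deleted exon.

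Epithelial markers were high in every library, with summed rescaled TPM of 7 genes (Epcam, keratins, Cdh1 and Vil1) between 3761 and 6528. Markers of other cells were present too. Water libraries held macrophage genes, with the sum of 9 markers between 1281 and 2858 rescaled TPM, whereas the DSS libraries lay between 16.01 and 50.7. The 6 B and plasma cell markers summed to between 528 and 15633 on water and between 7.29 and 388 after DSS. Their water mean, 6933, was above the 5485 of the epithelial markers. Jchain carried most of it, with means of 6700 on water and 78.8 after DSS. The summed 6 neutrophil markers ran from 76.5 to 1731 after DSS and from 47.7 to 115 on water, and DSS control replicate 1 held the highest. S100a8 and S100a9 carried most of the DSS sum, with means of 212 and 224 rescaled TPM against 2.62 and 2.59 on water, whereas Ly6g averaged 39.8 after DSS and 51.9 on water and Csf3r 2.64 and 2.97. The 10 fibroblast markers summed to between 282 and 986 on water. After DSS they fell into separate ranges, with DSS control replicate 1 and DSS labelled knockout replicates 2 and 3 between 392 and 512 and the other 4 mice between 109 and 173. In these bulk libraries, fewer cells of a type and less RNA per cell cannot be told apart.

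Of the 7 MMPs, 4 lie together in 1 stretch of chromosome 9. In GENCODE M21 (GRCm38), chr9:7272514-7699585 spans 427 kb and holds 10 MMP genes, all of which the tables list. In order they are Mmp13, Mmp12, Mmp1b, Mmp3, Mmp1a, Mmp10, Mmp8, Mmp27, Mmp20 and Mmp7. Mmp13 is a collagenase, Mmp3 and Mmp10 are the stromelysins, which cut many matrix proteins and activate other pro-MMPs, and Mmp7 is matrilysin, a small MMP without the C-terminal hemopexin-like domain. Among the other 6 genes of this stretch, Mmp12 and Mmp1a were listed at 0 in all 16 mice, and Mmp1b, Mmp20 and Mmp27 never passed 0.192 rescaled TPM. Mmp8, neutrophil collagenase, reached 4.44 after DSS, in control replicate 1.

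The 4 promoters of these members share letters that the choice of genes did not use, and the 100 bases before each RefSeq start (GRCm38.p6, plus strand) are shown for that reason. Capitals mark matches to the AP-1 motif TGANTCA and to the TATA box TATAAA.
Mmp13, chr9:7272414-7272513: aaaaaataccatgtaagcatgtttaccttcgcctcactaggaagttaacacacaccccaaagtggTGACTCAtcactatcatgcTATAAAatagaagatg
Mmp3, chr9:7445722-7445821: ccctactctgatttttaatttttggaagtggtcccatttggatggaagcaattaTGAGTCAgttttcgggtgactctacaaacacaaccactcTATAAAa
Mmp10, chr9:7502242-7502341: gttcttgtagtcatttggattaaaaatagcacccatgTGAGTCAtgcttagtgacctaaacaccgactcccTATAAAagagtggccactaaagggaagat
Mmp7, chr9:7691990-7692089: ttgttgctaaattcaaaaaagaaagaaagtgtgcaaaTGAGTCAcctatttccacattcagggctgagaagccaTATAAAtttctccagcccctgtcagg

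AP-1 is the Fos and Jun family of transcription factors. The AP-1 letters are TGACTCA in Mmp13 and TGAGTCA in Mmp3, Mmp10 and Mmp7, and each lies upstream of a TATAAA match. From the RefSeq start those matches begin at -16 (Mmp13), -7 (Mmp3), -29 (Mmp10) and -26 (Mmp7). Mmp7 has a further TATAAA at -123, upstream of its AP-1 match. Both strands were searched, and TGANTCA reads the same on both. Of 32851 RefSeq promoter windows, 2.73% held TGANTCA in the 100 bases before the start, 5.56% held TATAAA and 0.234% held both. Promoter windows were matched for 8 of the 10 members (not for Mmp2 and Mmp9). In the full windows, 250 bases before to 50 after the start, Mmp14, Timp1, Timp2 and Timp3 held neither motif, against 7.81% of all windows with TGANTCA and 13.6% with TATAAA. The ETS-family motif PEA3 (AGGAAG) was in the windows of Mmp3, Mmp7, Mmp13, Mmp14, Timp1 and Timp3 and in 35.4% of all windows. A match describes letters and is not evidence of binding.

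**Figure D1:**
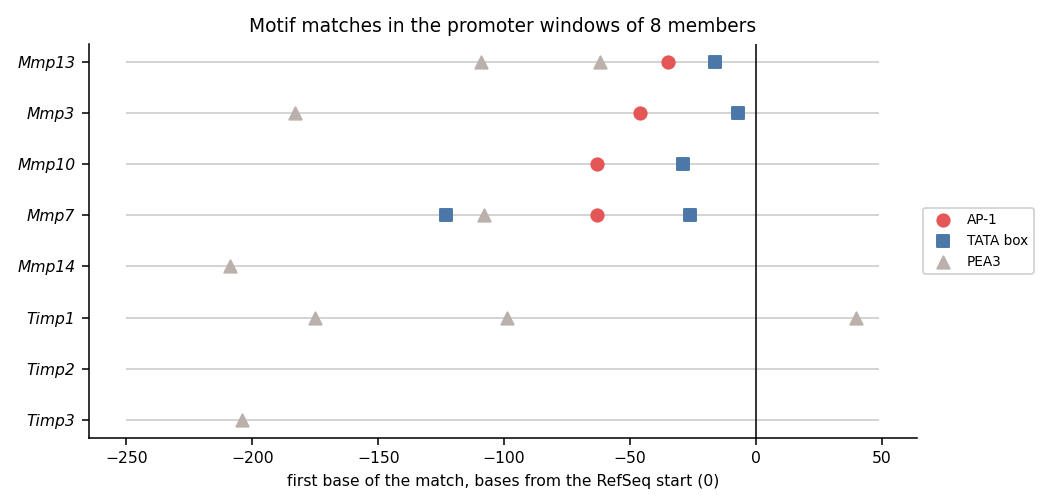
Positions of motif matches in the promoter windows of 8 members, in bases from the RefSeq start at 0 on the x axis, with 1 row per gene and 1 symbol per motif. The 4 genes of the chromosome 9 stretch each carry AP-1 between 63 and 35 bases before the start, followed by a TATAAA match. Mmp7 carries another TATAAA at -123, before its AP-1 match, and the other 4 genes carry neither motif.

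The remaining members lie apart. Mmp2 (gelatinase A, chr8:92827291-92853420), Mmp9 (gelatinase B, chr2:164940780-164955850) and Mmp14 (a membrane-anchored MMP that activates pro-Mmp2, chr14:54431612-54445364) are on the plus strand. The inhibitors Timp1 (chrX:20870166-20874735) and Timp3 (chr10:86300372-86349506) are on the plus strand and Timp2 (chr11:118301069-118355740) on the minus strand. One transcript was listed per member except Timp1, which had 2. In DSS control replicate 2 the whole Timp1 value of 1.25 TPM came from the second. The Mmp3 and Mmp10 transcripts share sequence: 14.6% of the 31-base words of Mmp3 and 11.9% of those of Mmp10 occur in another gene's transcript. For Mmp7 that share was 9.06%, and for Timp3 it was 36.9%. The split of shared reads between such genes is uncertain.

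The stromelysins Mmp3 and Mmp10 and the collagenase Mmp13 averaged higher in the labelled knockout after DSS, but none passed the test across all genes. Mmp3 was at 7.16, 1.20 and 1.37 TPM in the 3 controls and at 10.7, 19.4, 49.8 and 5.65 TPM in the 4 labelled knockout mice. Only DSS labelled knockout replicate 4 lay below the highest control, so the groups overlapped by 1 mouse on each side. The means were 3.24 TPM ± 3.40 (SD, n = 3) and 21.4 ± 19.8 (n = 4). The log2(TPM + 1) difference was 2.27 with a standard error of 0.74, and limma gave an unadjusted p of 0.0159 and an adjusted p of 0.9997 over 10899 genes.

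Mmp10 was at 3.86, 3.50 and 0.800 TPM in the controls and at 4.57, 9.71, 32.8 and 5.73 TPM in the labelled knockout mice after DSS. It was the 1 member of 10 whose genotypes did not overlap. Over all 10899 genes compared, 2.13% were higher in the labelled knockout without overlap and 1.55% were lower. The limma difference was 1.67 on the log2(TPM + 1) scale (standard error 0.65, unadjusted p = 0.0352, adjusted p = 0.9997). Exact permutation of mean TPM, two-sided, gave p = 0.0571, which is the smallest it can give with 3 mice against 4, so no single member could pass 0.05 by that test.

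Mmp13 was at 4.01, 0 and 0.190 TPM in the controls and at 6.09, 6.27, 13.9 and 2.53 TPM in the labelled knockout mice after DSS. The control with 4.01 TPM was DSS control replicate 1, the control with the most fibroblast and neutrophil marker RNA. The difference was 1.99 on the log2(TPM + 1) scale (standard error 0.66, limma unadjusted p = 0.0176, adjusted p = 0.9997).

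DSS labelled knockout replicate 3 was highest for each of these 3 genes. Among the DSS mice it also held the highest fibroblast marker sum, 512 rescaled TPM, and the highest B and plasma cell marker sum, 388. Without that mouse the labelled knockout means were 11.9 TPM for Mmp3, 6.67 for Mmp10 and 4.96 for Mmp13. Among the 4 DSS mice with low fibroblast markers, Mmp3 was at 1.20 and 1.37 TPM in controls and at 10.7 and 5.65 TPM in labelled knockout mice, and Mmp13 at 0 and 0.190 against 6.09 and 2.53 TPM. Mmp10 was at 3.50 and 0.800 against 4.57 and 5.73 TPM. Among the 3 mice with high fibroblast markers, Mmp3 was at 7.16 TPM in the control and at 19.4 and 49.8 TPM in labelled knockout mice. With 1 or 2 mice on a side these values are a description. The part of fibroblast RNA, or of B and plasma cell RNA, in the genotype difference was not tested. By cage, Mmp3 was 1.37 TPM in the control and 10.7 in the labelled knockout mouse of cage c, while in cage d the controls (1.20 and 7.16) and the labelled knockout mice (5.65 to 49.8) overlapped.

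On water the genotypes overlapped for all 3 genes. Mmp3 was between 0.430 and 0.587 TPM in controls and between 0 and 1.33 TPM in labelled knockout mice, and Mmp10 between 0 and 0.297 and between 0 and 1.88 TPM. Mmp10 averaged 0.195 TPM in controls and 0.792 in labelled knockout mice, a ratio of 4.07 beside 4.86 after DSS, and 3 of the 5 labelled knockout mice lay above the highest control (exact permutation p = 0.159). Neither gene reached the mean of 1 TPM needed for the fit. Mmp13 was between 6.61 and 12.4 TPM in controls and between 2.46 and 13.5 TPM in labelled knockout mice, a log2(TPM + 1) difference of -0.21 (standard error 0.44, limma adjusted p = 0.942). That difference joins 2 cages that went opposite ways. In cage a (males), controls were at 6.61 and 7.41 TPM and labelled knockout mice at 2.46 and 3.70. In cage b (females), the means were 9.85 and 11.6 TPM with overlapping ranges. No share over all genes was counted within cages, and the part of cage or sex was not tested. Whether the genotype difference itself differed between treatments was not tested.

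The other members overlapped between genotypes in both treatments. Mmp14, on average the most abundant member after DSS, was at 29.9, 29.7 and 45.0 TPM in controls and at 40.5, 41.6, 43.2 and 35.8 TPM in labelled knockout mice. The overlap rests on the control of cage c, at 45.0 TPM beside 40.5 in the labelled knockout mouse there. In cage d the controls (29.7 and 29.9) lay below the labelled knockout mice (35.8 to 43.2). The share of all genes that do so within a cage was not counted. The 95% interval of its log2(TPM + 1) difference ran from -0.17 to 0.62. Mmp7 had a difference of 0.12 after DSS with an interval from -0.48 to 0.72. The gelatinases were less certain, with intervals from -1.01 to 2.31 for Mmp2 and from -1.01 to 1.32 for Mmp9. The inhibitors had differences of 0.65 (Timp1), 0.29 (Timp2) and 0.44 (Timp3) on the log2(TPM + 1) scale after DSS, each with an interval that spans 0.

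On water the largest differences among the 7 members fitted were those of Mmp9 (0.80, standard error 0.40), Timp2 (-0.60, 0.32) and Timp3 (-0.59, 0.28) on the log2(TPM + 1) scale. By limma their unadjusted p were 0.0755, 0.0938 and 0.0622, and every member had an adjusted p of at least 0.865. The fibroblast marker genes had a median log2 difference of -0.60 on the same scale in these mice, against 0.00 over all genes, and its part in the Timp2 and Timp3 values was not tested. No member was without overlap on water, where 0.67% of 11046 genes were higher and 0.878% lower in the labelled knockout without overlap.

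Across all genes limma called 1 gene after DSS (0.00918% of those tested) and 1 on water (0.00905%), neither of them a member. Tra2a, a splicing regulator, was higher in the labelled knockout after DSS by 3.46 on the log2(TPM + 1) scale, and Dus2, a tRNA-modifying enzyme, was lower on water, at -2.33. At an unadjusted p under 0.05 there were 289 genes after DSS and 583 on water.

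**Figure D2:**
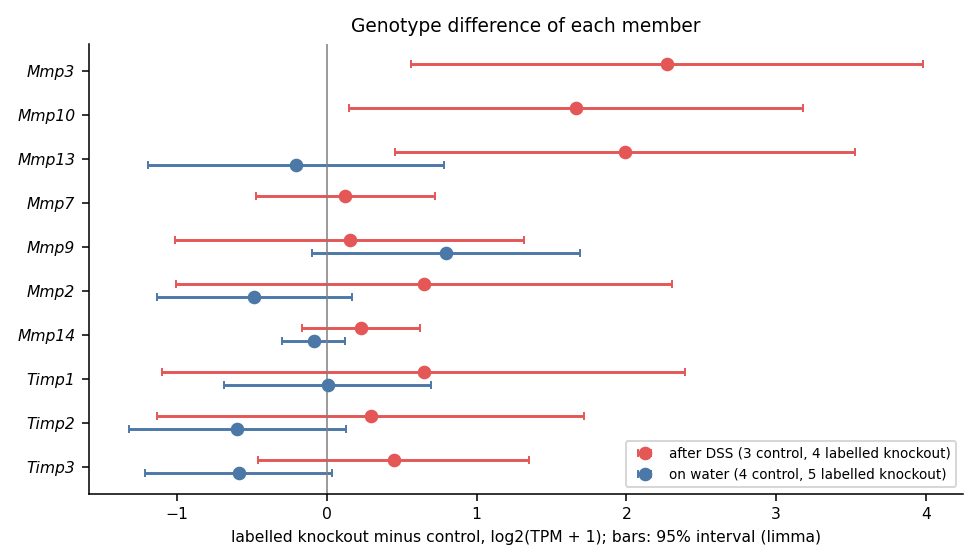
Difference of each member between labelled knockout and control on the log2(TPM + 1) scale (x axis), with points for the limma estimate and bars for its 95% interval, in red after DSS and in blue on water. The intervals of Mmp3, Mmp10 and Mmp13 after DSS lie above 0 before adjustment over all genes, and every other interval spans 0. Members without a blue point did not reach a mean of 1 TPM on water.

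Between treatments, Mmp7 separated the mice completely. It was listed at 0 in 8 of the 9 water mice and at 0.432 rescaled TPM in the other (water control replicate 2), whereas the 7 DSS mice lay between 1.29 and 2.91 rescaled TPM. It was the 1 member higher in every DSS mouse than in every water mouse, and no member was lower in every DSS mouse. Since all DSS mice were female, the comparison was also made among the 12 female mice, where Mmp7 was again higher and both Mmp9 and Timp2 were lower without overlap. Over all 16 mice, 3.05% of the 18010 genes above 0 in at least 1 mouse were higher and 4.78% lower without overlap. The share among the females alone was not counted, so the female result has no background beside it. As deposited, Mmp7 was at 2.28, 3.47 and 1.52 TPM in the 3 DSS mice with high fibroblast markers and at 2.21, 1.62, 2.60 and 1.89 TPM in the other 4, and these ranges overlapped.

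The stromelysins were higher after DSS within each genotype. Mmp3 averaged 0.563 rescaled TPM ± 0.0758 (SD, n = 4) in water controls and 2.79 ± 2.96 (n = 3) in DSS controls, and 0.626 ± 0.567 (n = 5) and 18.1 ± 16.8 (n = 4) in labelled knockout mice. Mmp10 averaged 0.213 ± 0.146 and 2.36 ± 1.49 rescaled TPM in water and DSS controls, and 0.869 ± 0.801 and 11.2 ± 11.2 in labelled knockout mice. Taken over both genotypes, the lowest DSS control for Mmp3 (1.06 rescaled TPM) lay below the highest water mouse (1.46), and for Mmp10 the values were 0.645 and 2.08. Mmp3, Mmp7 and Mmp10 were higher after DSS without overlap among the control mice, where 8.62% of all genes were, and again among the labelled knockout mice, where 12.6% were.

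In the opposite direction, Mmp2, Mmp13 and Timp2 were lower after DSS without overlap among the control mice, where 10.9% of all genes were. Mmp13 lay between 7.09 and 13.5 rescaled TPM in water controls and between 0 and 3.48 in DSS controls. In labelled knockout mice its ranges, 2.69 to 14.4 on water and 2.15 to 11.7 after DSS, overlapped. Timp2 was between 31.3 and 60.2 rescaled TPM in water controls and between 4.34 and 13.5 in DSS controls. Of the 10 fibroblast markers, 7 were also lower without overlap among the controls and 0 among the labelled knockout mice, and their part in the Mmp2 and Timp2 values was not tested.

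Mmp9 was lower after DSS without overlap among the labelled knockout mice (8.02 to 14.1 rescaled TPM on water, 0.763 to 2.55 after DSS), where 12.6% of all genes were lower. Among the controls it ranged from 1.58 to 11.3 and from 0.231 to 3.46. All 9 macrophage markers were lower in every DSS mouse than in every water mouse, and both macrophages and neutrophils are known to make Mmp9. The part of those cells was not tested. Mmp14, in contrast, stayed in 1 narrow range, 26.3 to 34.5 rescaled TPM on water and 25.9 to 36.6 after DSS. Timp1 spanned 2.25 to 7.14 on water and 1.10 to 14.2 after DSS, and Timp3 13.2 to 52.4 and 10.6 to 31.01.

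**Figure D3:**
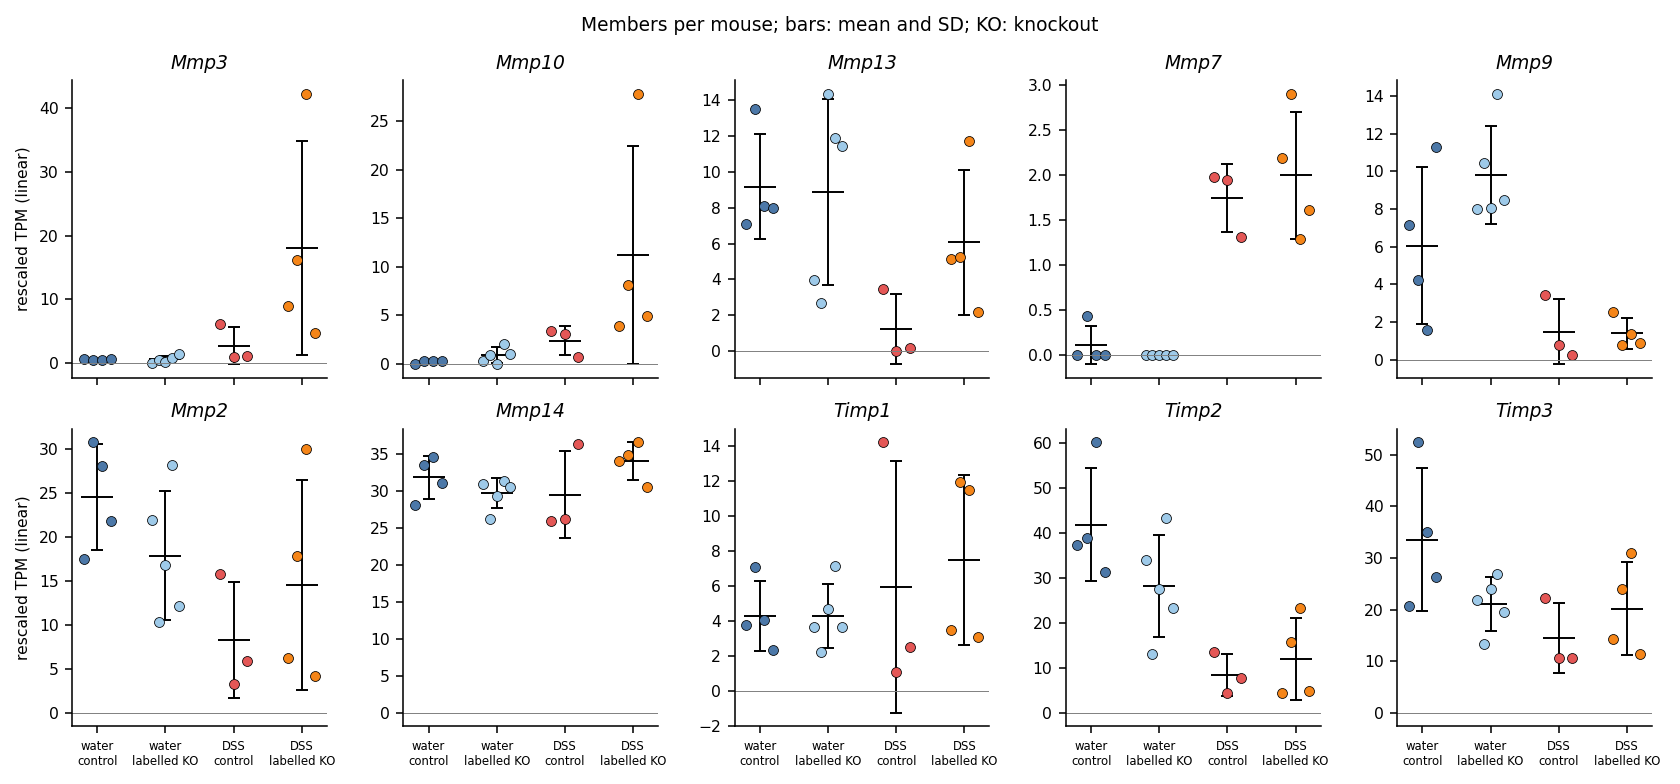
Level of each member in every mouse in rescaled TPM on a linear y axis, by treatment and genotype, with black bars for the mean and SD of the group. Mmp7 lies at or near 0 on water and between 1.29 and 2.91 after DSS, and Mmp3 and Mmp10 are highest in DSS labelled knockout mice, with replicate 3 at 42.2 and 27.8.

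Ordered by mean rescaled TPM, the water controls expressed Timp2 (41.9), Timp3 (33.6), Mmp14 (31.8) and Mmp2 (24.5) most, followed by Mmp13 (9.18), Mmp9 (6.07) and Timp1 (4.32). Mmp14 headed both DSS groups, with 29.5 in controls and 34.0 in labelled knockout mice. The order below it differed: Mmp3 averaged 18.1 in the DSS labelled knockout mice, beside 20.2 for Timp3, but 10.01 against 16.5 without replicate 3, and 2.79 in DSS controls, where Timp3, Timp2, Mmp2 and Timp1 were above it. Several neighbours in these orders lay within 1 SD of each other, among them Timp2, Timp3 and Mmp14, and Mmp13, Mmp9 and Timp1, in water controls, and Timp3, Mmp3, Mmp2 and Timp2 in DSS labelled knockout mice, so these places are not separated.

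Summed over the 7 MMPs, the rescaled TPM were between 51.2 and 88.4 on water and between 36.3 and 151 after DSS. The 3 inhibitors summed to between 28.5 and 99.2 on water and between 16.03 and 65.8 after DSS. The MMP sum per inhibitor sum was 0.947 ± 0.209 (SD, n = 4) in water controls, 1.33 ± 0.284 (n = 5) in water labelled knockout mice, 1.89 ± 0.592 (n = 3) in DSS controls and 2.33 ± 0.498 (n = 4) in DSS labelled knockout mice. The ranges of the treatments overlapped, since DSS control replicate 1 was at 1.20 and water labelled knockout replicate 2 at 1.80. The genotypes overlapped too: on water with 0.737 to 1.22 in controls and 1.10 to 1.80 in labelled knockout mice. After DSS these ranges were 1.20 to 2.27 and 1.66 to 2.83. The part of fibroblast RNA in these ratios was not tested. These sums are of RNA and say nothing of active enzyme. They cover the members only. Outside them, Mmp15 averaged 21.3 rescaled TPM on water and 17.8 after DSS, Mmp19 9.25 and 3.81, and Timp4 0.756 and 0.398. Which sum is larger in a mouse can therefore depend on the genes included. Mmp2 and Mmp14 made up 65.6% to 85.6% of the MMP sum on water and 44.1% to 92.5% after DSS.

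**Figure D4:**
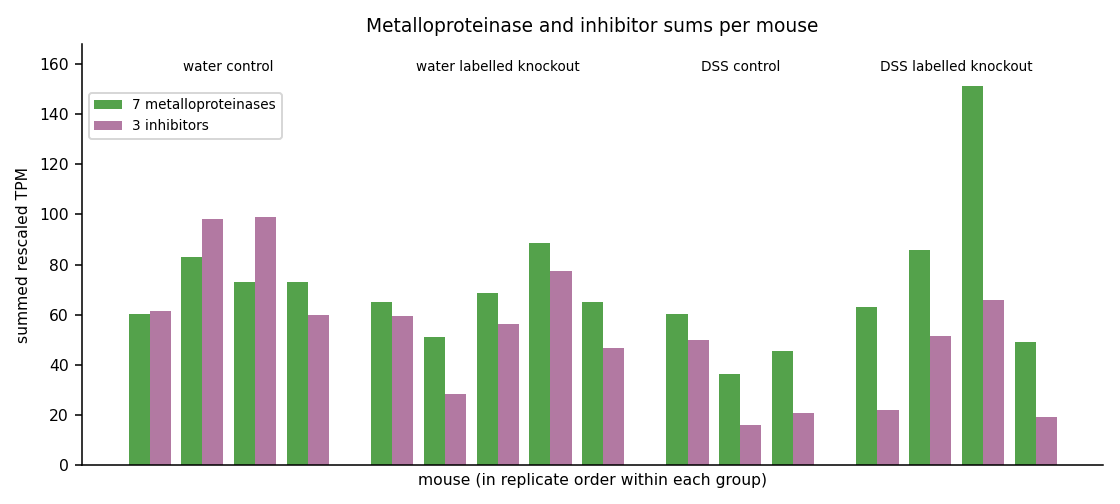
Summed rescaled TPM (y axis, from 0) of the 7 MMPs in green and the 3 inhibitors in purple, for each mouse in replicate order within its group. The MMP bar is above the inhibitor bar in all 7 DSS mice and in 6 of the 9 water mice (5 labelled knockout, 1 control). Other MMPs and inhibitors, among them Mmp15 and Mmp19, are not in these bars. The ranges of MMP per inhibitor sum of the genotypes overlap in each treatment. The tallest bar, at 151, is DSS labelled knockout replicate 3.

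Mmp2, Timp2 and Timp3 moved with fibroblast genes across mice. Over the 9 water mice, log2(TPM + 1) of Mmp2 and the mean log2(TPM + 1) of 10 fibroblast markers had a Pearson r of 0.92 (exact permutation p = 0.000402, adjusted over 9 relations 0.00327) and a Spearman rho of 0.87 (p = 0.00451, adjusted 0.0203). Without the 2 mice farthest from the median marker level, r was 0.82. For Timp3, r was 0.90 (exact permutation p = 0.000728, adjusted 0.00327) and rho 0.97 (p = 0.000165, adjusted 0.00149), and without those 2 mice r was 0.87. For Timp2, r was 0.87 (exact permutation p = 0.00247, adjusted 0.00740), rho 0.80 (p = 0.0138, adjusted 0.0311) and r without those mice 0.75.

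Mmp14 had an r of 0.81 on water (exact permutation p = 0.00828, adjusted 0.0186) and a rho of 0.65 (p = 0.0666, adjusted 0.114), and its r without the 2 mice was 0.47, so the relation rests on those mice. Timp1 had an r of 0.68 (exact permutation p = 0.0427, adjusted 0.0641), a rho of 0.80 (p = 0.0138, adjusted 0.0311) and an r of 0.34 without them. The values of Mmp13 were 0.69 (exact permutation p = 0.0393, adjusted 0.0641), 0.63 (p = 0.0760, adjusted 0.114) and 0.23. Mmp3, Mmp9 and Mmp10 had r of -0.03, -0.40 and -0.10, with adjusted exact permutation p of 0.940, 0.377 and 0.889. Mmp7 was above 0 in 1 water mouse and was left out. Within the cages of the water mice there were 4 and 5 animals, too few for a correlation.

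No correlation is given for the DSS mice, because their fibroblast markers fell into 2 separate ranges. There, Timp1 was at 16.4, 14.3 and 13.6 TPM in the 3 mice with high markers and between 1.25 and 4.16 TPM in the other 4. Mmp2 was between 18.2 and 35.4 TPM in the former and between 3.67 and 7.44 in the latter. Timp2 (15.6 to 27.5 against 4.92 to 9.51) and Timp3 (25.7 to 36.6 against 12.0 to 17.1) also separated along the fibroblast markers. Mmp10 did not: its lowest value in the former mice, 3.86 TPM, was below the 4.57 and 5.73 TPM of DSS labelled knockout replicates 1 and 4.

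**Figure D5:**
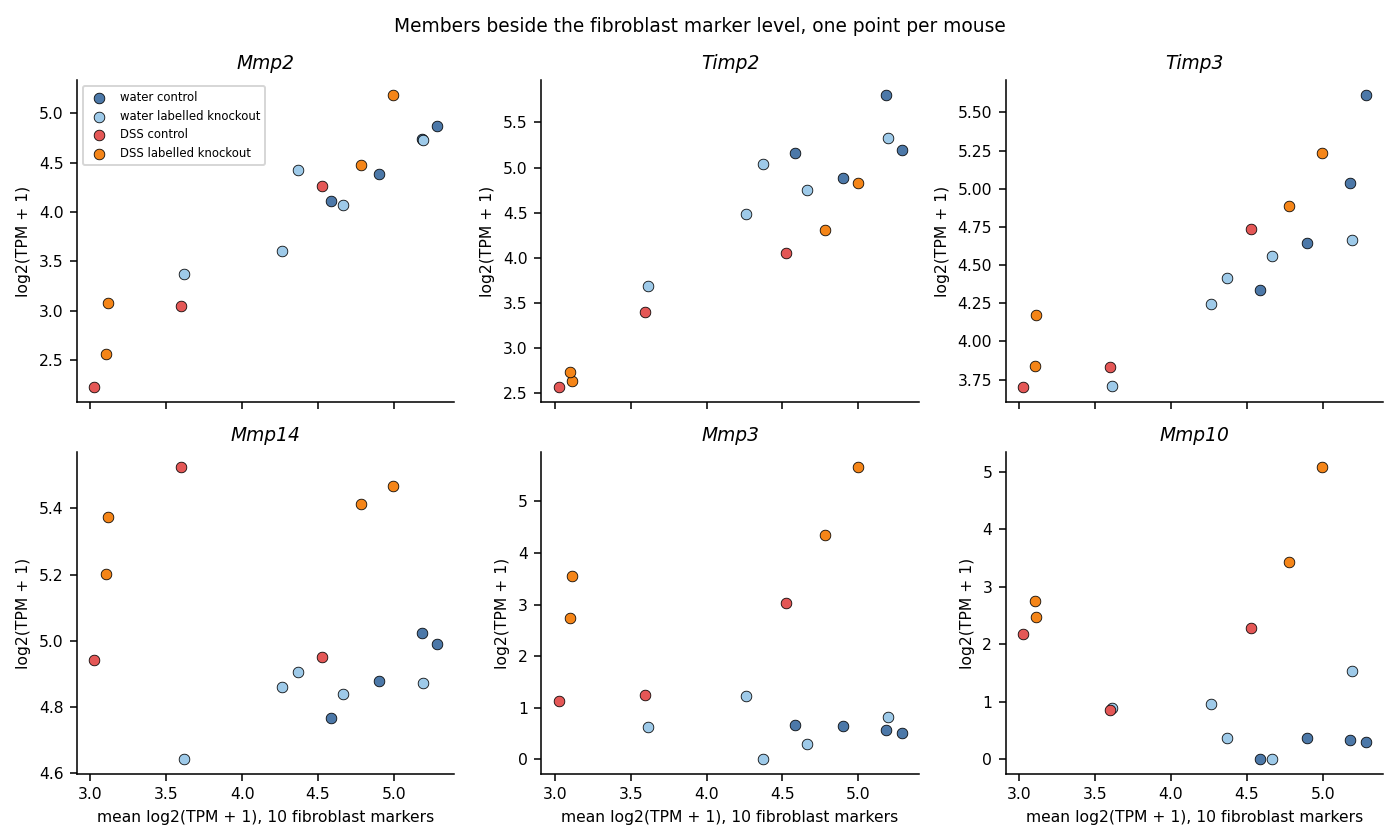
Level of 6 members (y axis, log2(TPM + 1)) against the mean log2(TPM + 1) of 10 fibroblast markers (x axis), 1 point per mouse, coloured by group. Mmp2, Timp2 and Timp3 climb with the markers, while Mmp3 and Mmp10 in DSS labelled knockout mice lie above the other mice at both ends of the marker range.

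With each treatment's mean removed, the genes most like each member over the 16 mice were read from 11247 genes averaging 1 TPM or more. These correlations are descriptions: the mice share cages and the same libraries give both values. The genes named were picked for the highest r in these same mice, and no background was counted for values of this size. Mmp2 was nearest to C1ra (r = 0.98), Col6a2 (0.97) and Bgn (0.97), and Timp2 to Loxl1, Col6a1 and Col1a2 (each 0.97). Col6a1, Col6a2 and Col1a2 encode collagen chains and Bgn a matrix proteoglycan. Timp3 was nearest to Plpp3 (0.96), Loxl2 (0.95) and Osmr (0.94), and Timp1 to Col4a2 (0.88), Jam2 (0.88) and Tnfaip6 (0.87).

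Mmp3 was nearest to Ednra (0.86), Mmp13 (0.86) and Iglv1 (0.86), Mmp10 to Mmp3 (0.85), Ednra (0.83) and Gm13889 (0.83), and Mmp13 to Pdgfrb (0.87), Mmp3 (0.86) and Icam1 (0.85). Mmp9 was nearest to Sp140 (0.87), Tmem123 (0.87) and Retnlg (0.87), the last a granulocyte gene. Mmp14 was nearest to Bcam (0.84), A4galt (0.83) and Mob3a (0.80), and Mmp7 to Cul5 (0.80), Tmem35a (0.74) and Hikeshi (0.74). Mmp7 was above 0 in 1 water mouse, so its values rest almost wholly on the 7 DSS mice. Between members, r was 0.93 for Mmp2 and Timp2, 0.86 for Mmp3 and Mmp13, 0.85 for Mmp3 and Mmp10, 0.64 for Mmp10 and Mmp13 and -0.04 for Mmp7 and Mmp10.

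Other genes of the system gave 0 calls by limma in either treatment. Of the 16 other MMPs listed for this comparison, 13 were above 0 in at least 1 mouse, and 3 reached the fit after DSS and 4 on water. Mmp15, a membrane-anchored MMP, was the most abundant of them, at 15.4 to 26.04 rescaled TPM on water and 15.4 to 21.6 after DSS, and Mmp19 followed with means of 9.25 and 3.81. Reck, a membrane-anchored inhibitor, had means of 1.76 and 0.443. Of 10 genes of plasminogen and MMP activation, 8 were fitted in each treatment, and 1 of the 10, Plau (urokinase), was lower without overlap after DSS, with 10.0 to 43.6 rescaled TPM on water and 1.47 to 8.64 after DSS. Of 14 ADAM and ADAMTS proteases above 0, 1 (Adam19) was lower after DSS without overlap, at 3.54 to 11.3 and 0.504 to 2.39. Over all genes 4.78% were lower in this way, so single genes in lists of this size are near the background over all mice. Within the control mice, 10.9% of all genes were lower after DSS without overlap. So were 4 of 14 ADAM and ADAMTS proteases (Adam15, Adam19, Adamts2 and Adamts5) and 2 of 10 activation genes (Plau and Plaur). Of the other MMPs 4 of 12 (Mmp11, Mmp19, Mmp23 and Mmp25) were lower there, and of the other inhibitors 2 of 3 (Timp4 and Reck). Adam10, a sheddase, had means of 21.1 and 43.0 with overlapping ranges over all mice. Within the labelled knockout mice, 12.6% of all genes were higher after DSS without overlap and 12.6% lower. There 3 of 14 ADAM and ADAMTS proteases (Adam10, Adam12 and Adamts9) and 1 of 12 other MMPs (Mmp8) were higher. Adam19 and 3 of 9 activation genes (Plau, Serpinb2 and Furin) were lower.

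Among 12 matrix and surface substrates, 1, the syndecan Sdc1, was lower without overlap after DSS (99.1 to 150 rescaled TPM on water, 63.1 to 92.8 after DSS), and Tnf had means of 13.7 and 32.4 with overlapping ranges. Of 11 AP-1 and ETS factors, 1 (Jun) was lower without overlap, by a narrow margin, with 488.92 as the lowest value on water and 488.89 as the highest after DSS. Over all mice both counts are again near the 4.78% of all genes. Within the control mice, 5 of 11 factors (Fos, Fosb, Fosl2, Jun and Junb) were lower without overlap after DSS, against 10.9% of all genes. Of the 12 substrates, 3 (Eln, Sdc1 and Hbegf) were lower there. Within the labelled knockout mice 3 factors (Jun, Junb and Jund) and 1 substrate (Sdc1) were lower, against 12.6% of all genes. The factor Ets2 was higher there, as were 12.6% of all genes. Between genotypes, 1 of the 10 factors compared, Ets2, was higher in the labelled knockout after DSS without overlap (means of 141 and 117 TPM), against 2.13% of all genes, with a limma unadjusted p of 0.0420 and an adjusted p of 0.9997. On water 2 of 11 were lower in the labelled knockout without overlap, against 0.878% of all genes. They were Fosb (means of 329 and 433 TPM) and Fosl1 (21.9 and 37.4 TPM), each with a limma adjusted p of 0.865.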

How the data were processed

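The authors sequenced stranded poly(A) libraries (75-base single reads, about 10 M reads per sample per the labels), estimated abundances with kallisto and compared genotypes with sleuth, with mm10 named in the submitters' processing notes. The authors deposited TPM per principal transcript and mouse in 2 tables, 1 per treatment, scaled separately. Columns of the authors' own tests (p, q, variance terms, log2 ratio) were not used. Of 29373 lines per table, 385 repeated another and were dropped. TPM was summed per gene symbol.

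Genotypes were compared within a table by limma 3.58.1 (R 4.3.3) with a variance trend on log2(TPM + 1). Genes averaging under 1 TPM in the table were left out, p-values were adjusted (Benjamini-Hochberg) over all genes fitted, and the threshold was 0.05. The pseudocount understates changes of low genes. Mean TPM of single members was also permuted exactly, two-sided (SciPy 1.17.1, 35 and 126 splits). Rescaling used 9936 genes above 0 in all mice. The fit was also run on simulated data with noise drawn separately for each gene. That setting does not hold genes that move together across mice, so it does not test the fit for such genes. Libraries are separate mice. Replicate numbers name mice, and the labels state no pairing by them. Members and gene lists were chosen with earlier results of these data known. Named genes are the members, list genes called or with the highest level or difference, and the 3 genes most like each member. Mmp8 and the other genes of the chromosome 9 stretch, and genes named for not overlapping, were chosen after their values were seen.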

Additional observations from a re-analysis of the deposited data

Results flagged for a closer look

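The highest or lowest mouse was compared with its neighbours by Dixon's test in 29 sets of values (10 members in the 3 groups of 4 or 5 mice, leaving out 1 set with equal values), and 3 stood apart. Chance gives about 1 in 20. Mmp7 was at 0.396 TPM in water control replicate 2 and listed at 0 in the other 3 water controls, a set in which any value above 0 stands apart by this test, whatever its size. Mmp13 was at 12.4 TPM in the same mouse, against 7.41 TPM in the next. That mouse also held the highest fibroblast marker sum on water, 986 rescaled TPM. Mmp14 was at 23.98 TPM in water labelled knockout replicate 2, against 27.6 TPM in the next, and that mouse held the lowest fibroblast marker sum on water, 282 rescaled TPM. The part of those cells was not tested.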

How the results depend on the processing

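Over 268 values of 17 member differences under alternative settings, none passed an adjusted p of 0.05 (lowest 0.708, limma), and 15 changed sign. After DSS, Mmp3, Mmp10 and Mmp13 kept their direction in every setting in which they were fitted, with log2 differences of 1.74 to 2.88, 1.10 to 2.05 and 1.56 to 3.65. Leaving out 1 mouse at a time, differences that changed sign ranged for Mmp7 after DSS from -0.024 to 0.25, for Mmp9 after DSS from -0.26 to 0.71, for Timp2 after DSS from -0.11 to 0.65, for Mmp13 on water from -0.42 to 0.094 and for Timp1 on water from -0.19 to 0.23. Cage as a covariate gave Timp1 on water -0.033. Settings chosen after seeing the data were leaving out DSS cage c (Mmp7 -0.022 and Mmp9 -0.49 after DSS) and leaving out the 3 DSS mice with the highest fibroblast markers (Timp2 -0.29).

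Genes called after DSS numbered 1, and 0 with a pseudocount of 0.1, with all genes above 0, with the replicate block and without either set of mice just named, and 0 to 3 leaving out 1 mouse. On water 1 was called, 0 with a pseudocount of 0.1, a mean of at least 5 TPM or the replicate block, 4 with all genes above 0, 2 with quantile normalization, and 1 to 2 leaving out 1 mouse. Same-numbered mice had correlations of deviations from -0.20 to -0.03 after DSS and from -0.08 to 0.09 on water. Differently numbered mice were not compared, so these few values cannot decide whether the numbers pair mice. The labels state no pairing, and some same-numbered mice came from different cages. The count of members higher after DSS without overlap was 1, and 3 within control mice, 3 within labelled knockout mice, 2 without DSS cage c and 1 to 2 leaving out 1 mouse. It was 2 without water labelled knockout replicate 5 (Mmp3 added) or DSS control replicate 3 (Mmp10 added). The count lower was 0, and 3 within control mice, 1 within labelled knockout mice, 2 among female mice, 2 without the 3 mice with the highest fibroblast markers and 0 to 1 leaving out 1 mouse, with Mmp9 added without water control replicate 3 and Timp2 without water labelled knockout replicate 2. The cause was not tested. Between treatments, shares over all genes were counted only for the 16 mice and within each genotype. The number of mice limits precision, and TPM give no depth.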
